A study of Mus musculus with 24 samples.

Results

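The genes Sox9, Sox10, Procr, Bcl11b, Tspan8, Trp63, Cd24a, Id4 and Prom1 were followed through 6 comparisons of mouse mammospheres, which are mammary cells grown as spheres in suspension. They were chosen by name as regulators and surface markers of mammary stem and basal progenitor cells, with earlier results of these data known. They are 9 of the 15323 genes that any of the 6 tables lists. All 9 were listed in 3 tables, and 8, 7 and 6 of them in the others. RNA sequencing of polyadenylated RNA gave 24 libraries in 8 groups of FVB/Hsd mice.

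Wild-type mammospheres from mice aged 7 weeks carried either a lentivirus for Myc-ER, Myc fused to the oestrogen receptor's ligand-binding domain (3 libraries, passage 3), or the same lentiviral vector without an insert (3 libraries, passage 3). Tumour mammospheres came from breast tumours of mice aged 12 to 15 weeks that carry a mutated ErbB2 under the MMTV promoter, which is active mainly in mammary epithelium. They were not infected, were at passages 6 to 7, and were given Nutlin-3, a blocker of the Mdm2-p53 interaction, at 2.5 µM for 72 h (3 libraries) or left untreated (5 libraries). Trp53-knockout mammospheres came from normal mammary glands of mice aged 7 weeks, were not infected and were at passages 6 to 7 (2 libraries). PKH is a membrane dye that each division dilutes. Wild-type cells from mice aged 7 weeks were sorted at passage 1 into PKH-high cells (2 libraries) and PKH-negative cells (3 libraries), without infection. PKH-negative cells that received the Myc-ER lentivirus were at passage 3 (3 libraries). The labels name no ligand for the receptor part of Myc-ER.

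The mammary epithelium is a bilayer of inner luminal cells and outer basal cells, and transplantation of basal cells can rebuild a gland. Sox9 and Sox10 are transcription factors of the SoxE family that act in mammary progenitors. Trp63 encodes the p53 relative p63, which maintains basal epithelium, Bcl11b encodes a zinc-finger repressor best known from T cell commitment, and Id4 encodes an inhibitor of basic helix-loop-helix factors found in basal cells. Procr, Tspan8, Cd24a and Prom1 encode surface proteins used to sort stem or progenitor fractions: the endothelial protein C receptor, a tetraspanin, a small GPI-anchored glycoprotein and the pentaspan membrane protein CD133.

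The genes lie on GRCm38, the assembly also called mm10, and all are protein coding in GENCODE M21. Sox9 is at chr11:112782224-112787760 on the plus strand, Sox10 at chr15:79154908-79165240 on the minus strand and Trp63 at chr16:25683763-25892102 on the plus strand. Bcl11b is at chr12:107910403-108003602 on the minus strand and Id4 at chr13:48261228-48266026 on the plus strand. Procr is at chr2:155751117-155755471, Tspan8 at chr10:115816832-115849893 and Cd24a at chr10:43578284-43584265, all on the plus strand, and Prom1 is at chr5:43993620-44102032 on the minus strand. Exons of Prom1 share 424 bases with an antisense gene on the opposite strand, those of Id4 share 82 and 171 bases with a pair of such genes, and those of Tspan8 share 4 bases, and reads in these stretches cannot be told apart by strand.

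RefSeq promoter windows on GRCm38.p6, from 250 bases before to 50 bases after the annotated start, were at hand for 5 of the 9 genes (Procr, Prom1, Tspan8, Bcl11b and Id4). Prom1 and Tspan8 are shown because their called differences recur across the comparisons below, and Procr because it also has a motif match. They are Prom1 (upstream start, minus strand, chr5:44101687-44101986), Tspan8 (plus strand, chr10:115817034-115817333) and Procr (plus strand, chr2:155750967-155751266). Capitals mark a match to CANNTG, the general E-box that Myc and other helix-loop-helix factors read, in Prom1 and Procr, and a match to ACAAAG, a motif of Sox factors, in Tspan8, where it reads as its complement CTTTGT.
Prom1: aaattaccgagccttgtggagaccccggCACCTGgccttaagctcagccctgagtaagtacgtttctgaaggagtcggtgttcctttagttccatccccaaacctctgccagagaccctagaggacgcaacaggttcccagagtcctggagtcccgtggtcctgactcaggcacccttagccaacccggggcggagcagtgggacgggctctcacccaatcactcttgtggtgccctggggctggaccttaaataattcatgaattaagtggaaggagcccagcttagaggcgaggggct
Tspan8: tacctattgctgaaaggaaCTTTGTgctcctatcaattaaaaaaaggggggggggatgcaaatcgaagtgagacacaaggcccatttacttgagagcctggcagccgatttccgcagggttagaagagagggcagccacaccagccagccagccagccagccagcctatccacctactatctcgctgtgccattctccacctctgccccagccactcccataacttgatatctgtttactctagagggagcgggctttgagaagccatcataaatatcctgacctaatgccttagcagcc
Procr: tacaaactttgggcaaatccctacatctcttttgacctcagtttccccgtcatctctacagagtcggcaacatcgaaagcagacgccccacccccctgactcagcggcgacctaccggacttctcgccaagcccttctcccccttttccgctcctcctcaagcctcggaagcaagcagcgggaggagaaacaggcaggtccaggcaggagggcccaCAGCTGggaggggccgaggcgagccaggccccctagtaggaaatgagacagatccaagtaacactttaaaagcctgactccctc
Each of 5 motifs was searched on both strands. CANNTG occurred 1 time in Procr, at position -34 from the start, and 1 time in Prom1, at position -222, and 72.3% of 32851 RefSeq promoter windows hold it. ACAAAG occurred 1 time in Tspan8, at position -231, and 18.7% of windows hold it. CACGTG, the E-box that Myc prefers and a special case of CANNTG, was in none of these windows and in 7.15% of all windows. ACAATG, another Sox motif (12.6% of all windows), and a p53-family core of CATG on either side of a short spacer (0.712%) were in none of them. A second RefSeq start of Prom1 and the windows of Bcl11b and Id4 held no match to any of the 5 motifs.

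Values are the authors' mean normalised counts of each group, so the spread between libraries and library depths are unknown. The listed means of a group summed to between 36651100 and 48054400 per table. A gene is said to have risen or fallen where the authors' deposited adjusted p was below 0.05, and the error after ± is the standard error implied by their log2 fold change and p-value. The median log2 fold change of all genes lay between -0.02 and 0.03 in the 6 deposited tables. Esr1, whose sequence the Myc-ER fusion carries, averaged 152198 in Myc-ER and 129 in empty-vector mammospheres, and Myc averaged 16782 in Myc-ER and 2975 in empty-vector mammospheres. Trp53 averaged 2998 in the knockout and 4207 in empty-vector mammospheres in the authors' deposited table, so its transcript was still counted there. Erbb2 averaged 736 in tumour and 1498 in empty-vector mammospheres in the authors' deposited table, so its mean was not higher in tumours. Whether transcripts of the ErbB2 transgene were counted under this gene was not tested.

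PKH-high against PKH-negative cells asks which genes mark the slowly dividing fraction. Sox10, Tspan8, Id4 and Cd24a rose in PKH-high cells and none of the 9 genes fell. These 4 of 9 stand against 15.6% of 13959 genes called higher (30.7% called in either direction). Genes are listed only with a mean above 10 over the comparison. Tspan8, with a PKH-negative mean of 3.67, passed that minimum only through PKH-high cells. At that PKH-negative mean it could be listed only as higher, which limits the count. The authors' deposited table gave a median log2 fold change of 1.19 over the 9 genes and 0.01 over all genes.

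Among the transcription factors, Sox10 averaged 1114 in PKH-high and 19.4 in PKH-negative cells, with a log2 fold change of 5.61 ± 0.43 in the authors' deposited table (adjusted p = 9.17e-36), a 57.5-fold ratio of means. Id4 averaged 85.7 in PKH-high and 15.1 in PKH-negative cells, with a log2 fold change of 2.39 ± 0.45 in the authors' deposited table (adjusted p = 1.71e-06). Its relatives Id1 (0.72 ± 0.19, adjusted p = 0.00136) and Id2 (0.80 ± 0.30, adjusted p = 0.0293) also rose on the log2 scale of the authors' deposited table, and Id3 had 0.14 ± 0.27. Thus the Id genes called in this sort all pointed upward, with the larger value for Id4. The other factors did not pass the threshold. Sox9 averaged 2956 in PKH-high and 3190 in PKH-negative cells (log2 fold change -0.11 ± 0.36, adjusted p = 0.862 in the authors' deposited table). Trp63 averaged 46.4 in PKH-high and 18.03 in PKH-negative cells (1.19 ± 0.72, adjusted p = 0.208 in the authors' deposited table), and Bcl11b 17.2 in PKH-high and 9.54 in PKH-negative cells (0.77 ± 0.71, adjusted p = 0.442). Of the SoxE genes Sox10 was thus the called one: Sox8, the remaining member of that family, averaged 50.5 in PKH-high and 23.6 in PKH-negative cells (0.99 ± 0.66, adjusted p = 0.264 in the authors' deposited table).

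Among the surface proteins, Tspan8 averaged 123 in PKH-high and 3.67 in PKH-negative cells, with a log2 fold change of 4.62 ± 0.60 in the authors' deposited table (adjusted p = 6.67e-13). Cd24a averaged 2777 in PKH-high and 501 in PKH-negative cells, with a log2 fold change of 2.36 ± 0.46 in the authors' deposited table (adjusted p = 4.62e-06). Both are used as surface marks in cell sorting. Prom1 averaged 2015 in PKH-high and 1147 in PKH-negative cells and lay just outside the threshold (0.79 ± 0.33, adjusted p = 0.0531 in the authors' deposited table). Procr averaged 1717 in PKH-high and 1607 in PKH-negative cells (0.09 ± 0.20, adjusted p = 0.774 in the authors' deposited table). For Procr the implied 1 SE range thus covers 0, unlike for the called surface genes.

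Among partners and relatives of the 9 genes, 6 rose and 5 fell of 20 listed. Itga3, an integrin subunit that binds tetraspanins, had a log2 fold change of 4.57 ± 0.39 and Perp, a desmosome gene that p63 and p53 activate, one of 3.39 ± 0.37 in the authors' deposited table. Thrombomodulin (Thbd), which like Procr serves protein C activation, fell, with a log2 fold change of -1.57 ± 0.24 in the authors' deposited table (adjusted p = 2.23e-09). Of 28 other stem and progenitor associated genes, 8 rose and 4 fell, led by Tnfrsf11a, the receptor RANK (4.30 ± 0.42 in the authors' deposited table) and by Aldh1a1 on the lower side (-1.22 ± 0.31).

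Markers of several other cell types moved with these genes. Of 24 luminal markers 19 rose, and their summed mean without Esr1 was 67403 in PKH-high and 1883 in PKH-negative cells. Of 17 listed basal markers 13 rose and 2 fell, and Krt5 averaged 383 in PKH-high and 2.45 in PKH-negative cells. The basal sums were 168702 in PKH-high and 180826 in PKH-negative cells. The highest single basal mean was 108977 in PKH-high and 119699 in PKH-negative cells. That was most of each sum, so the basal sums say little about the other basal markers. Of 13 listed macrophage markers 12 rose (sums 62082 in PKH-high and 1526 in PKH-negative cells), and of 16 endothelial markers 12 rose and 1 fell (68073 in PKH-high and 10704 in PKH-negative cells). Of 10 listed Schwann cell markers, a cell type that also expresses Sox10, 6 rose and none fell, while their sums were 16468 in PKH-high and 17536 in PKH-negative cells. Of 15 fibroblast markers 1 rose and 6 fell, with sums of 401255 in PKH-high and 587561 in PKH-negative cells. Fewer cells of a type and less RNA per cell cannot be told apart in such bulk libraries, and the part of these cell types in the differences of the 9 genes was not tested.

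**Figure D1:**
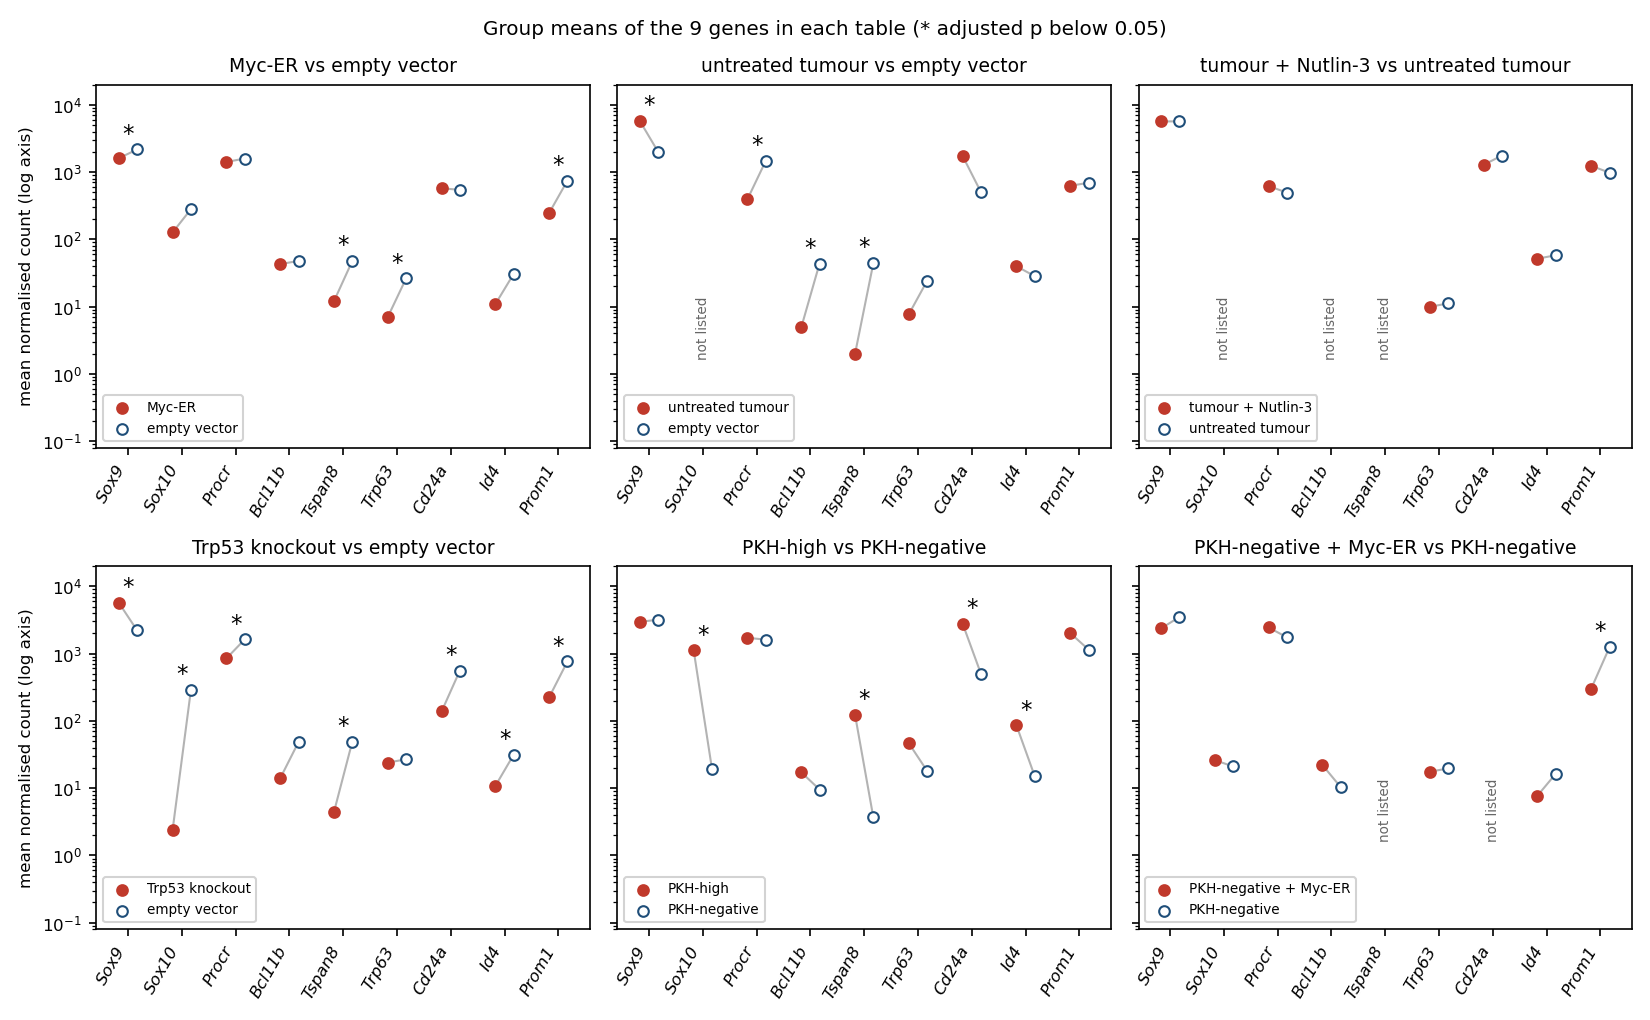
Mean normalised count (log axis) of each of the 9 genes in the group named first (filled) and second (open) above each panel; an asterisk marks an adjusted p below 0.05 in the authors' deposited table. Sox10 and Tspan8 show the widest gaps in PKH-high against PKH-negative cells, with means of 1114 against 19.4 and 123 against 3.67.

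Trp53-knockout against empty-vector mammospheres asks what differs in cells that lack p53. Sox10, Tspan8, Cd24a, Prom1, Id4 and Procr fell in the knockout and Sox9 rose. These 6 of 9 lower genes stand against 23.6% of 14699 genes called lower, and the 1 higher gene against 22.3% called higher (45.9% called in either direction). Sox10 and Tspan8, with knockout means of 2.41 and 4.45, passed the listing minimum of 10 only through the controls. At those knockout means they could be listed only as lower, which limits the count. The authors' deposited table gave a median log2 fold change of -1.62 over the 9 genes and 0.01 over all genes.

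Sox10 averaged 2.41 in knockout and 288 in empty-vector mammospheres, with a log2 fold change of -6.02 ± 0.82 in the authors' deposited table (adjusted p = 3.93e-12). Sox9 averaged 5677 in knockout and 2208 in empty-vector mammospheres, with a log2 fold change of 1.36 ± 0.14 in the authors' deposited table (adjusted p = 6.13e-21). Its relative Sox8 fell as well, at 4.48 in knockout and 92.7 in empty-vector mammospheres (-4.11 ± 0.61, adjusted p = 2.55e-10 in the authors' deposited table). Of the SoxE genes, Sox9 therefore rose while the other two fell. Id4 averaged 10.8 in knockout and 31.4 in empty-vector mammospheres (-1.47 ± 0.55, adjusted p = 0.0189 in the authors' deposited table). Id2 also fell (-2.38 ± 0.18), whereas Id1 (1.61 ± 0.21) and Id3 (1.66 ± 0.26) rose on the log2 scale of the authors' deposited table. The Id family was thus divided, Id4 and Id2 against Id1 and Id3. Bcl11b averaged 14.01 in knockout and 48.4 in empty-vector mammospheres (-1.62 ± 0.75, adjusted p = 0.0665 in the authors' deposited table), and Trp63 24.0 in knockout and 26.8 in empty-vector mammospheres (-0.15 ± 0.50, adjusted p = 0.828). Perp, a target of both p53 and p63, averaged 5.53 in knockout and 202 in empty-vector mammospheres (-4.70 ± 0.75, adjusted p = 4.16e-09 in the authors' deposited table).

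Each of the 4 surface genes fell. Tspan8 averaged 4.45 in knockout and 49.0 in empty-vector mammospheres (-3.02 ± 0.85, adjusted p = 0.00153 in the authors' deposited table). Cd24a averaged 138 in knockout and 559 in empty-vector mammospheres (-1.87 ± 0.68, adjusted p = 0.0151 in the authors' deposited table). Prom1 averaged 224 in knockout and 766 in empty-vector mammospheres (-1.73 ± 0.40, adjusted p = 8.33e-05 in the authors' deposited table). The smallest of these differences was that of Procr. It averaged 847 in knockout and 1623 in empty-vector mammospheres (-0.92 ± 0.38, adjusted p = 0.037 in the authors' deposited table). Of 21 partners 5 rose and 4 fell, and of 29 other stem and progenitor associated genes 6 rose and 9 fell. Ly6a, which encodes Sca-1, rose (1.85 ± 0.57) and Bcl11a, the paralogue of Bcl11b, fell (-3.29 ± 0.75 in the authors' deposited table).

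Some epithelial markers were low in the knockout. Epcam averaged 7.88 in knockout and 596 in empty-vector mammospheres, and Cdh1 5.43 in knockout and 494 in empty-vector mammospheres. Krt14 averaged 1.02 in knockout and 246 in empty-vector mammospheres, and Krt5 was not listed. Of 19 listed luminal markers 1 rose, 10 fell and 8 were not called. Without Esr1 they summed to 3877 in knockout and 7632 in empty-vector mammospheres. Of 15 listed basal markers 9 fell and 6 were not called, with sums of 129412 in knockout and 151430 in empty-vector mammospheres. The highest single basal mean, 110672 in knockout and 109462 in empty-vector mammospheres, was most of each sum. Of 16 endothelial markers 1 rose and 13 fell (sums 7599 in knockout and 15755 in empty-vector mammospheres), and of 13 listed macrophage markers 1 rose and 11 fell (1003 in knockout and 4675 in empty-vector mammospheres). Of 9 listed Schwann cell markers 1 rose and 5 fell (9680 in knockout and 17542 in empty-vector mammospheres), and of 15 fibroblast markers 1 rose and 3 fell. The part of these cell types in the differences of the 9 genes was not tested. Knockout mammospheres were also uninfected and at later passages than the infected controls, so genotype, infection and passage cannot be told apart.

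ErbB2-tumour against empty-vector mammospheres asks what differs in tumour-derived spheres. Tspan8, Bcl11b and Procr fell and Sox9 rose in tumour mammospheres. These 3 of 8 lower genes stand against 13.6% of 13288 genes called lower, and the 1 higher gene against 13.5% called higher (27.1% called in either direction). Tspan8 and Bcl11b, with tumour means of 2.00 and 4.92, passed the listing minimum of 10 only through the controls. At those tumour means they could be listed only as lower, which limits the count. The authors' deposited table gave a median log2 fold change of -0.80 over the 8 genes and 0.02 over all genes. The control libraries are those of the knockout comparison, so the values below are not independent of the ones above.

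Sox9 averaged 5723 in tumour and 1993 in empty-vector mammospheres, with a log2 fold change of 1.49 ± 0.39 in the authors' deposited table (adjusted p = 9.54e-04). Bcl11b averaged 4.92 in tumour and 43.7 in empty-vector mammospheres (-2.89 ± 0.71, adjusted p = 4.98e-04 in the authors' deposited table). Sox10 was not listed in this table, although the empty-vector libraries alone would give it a mean of 96.9 over the comparison, above the minimum of 10 that the file headers state. The same held for 253 of 12783 genes (1.98%), so this missing entry alone does not give the level of Sox10 in tumours. Sox8 was listed and fell, at 1.9 in tumour and 83.7 in empty-vector mammospheres (-4.77 ± 0.84, adjusted p = 3.08e-07 in the authors' deposited table). Trp63 averaged 7.71 in tumour and 24.2 in empty-vector mammospheres (-1.50 ± 0.75, adjusted p = 0.131 in the authors' deposited table), and Id4 39.9 in tumour and 28.4 in empty-vector mammospheres (0.42 ± 0.93, adjusted p = 0.793). Id4 was thus not called here, while Id2 fell (-2.55 ± 0.76) and Id3 rose (1.29 ± 0.35) on the log2 scale of the authors' deposited table.

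Tspan8 averaged 2.00 in tumour and 44.3 in empty-vector mammospheres (-3.89 ± 0.86, adjusted p = 8.08e-05 in the authors' deposited table). Procr averaged 395 in tumour and 1465 in empty-vector mammospheres (-1.80 ± 0.55, adjusted p = 0.00579 in the authors' deposited table). Tissue factor (F3), which starts the coagulation that the protein C system restrains, fell as well (-2.81 ± 0.36, adjusted p = 4.49e-13 in the authors' deposited table), and Thbd had 0.19 ± 0.50. Cd24a averaged 1730 in tumour and 504 in empty-vector mammospheres, with a wide error (1.44 ± 1.01, adjusted p = 0.311 in the authors' deposited table). Prom1 averaged 626 in tumour and 692 in empty-vector mammospheres (-0.10 ± 1.19, adjusted p = 0.964 in the authors' deposited table). With an implied error of more than 1 log2 unit, neither Cd24a nor Prom1 was distinguished from the controls. Of 20 partners 1 rose and 4 fell, and of 28 other stem and progenitor associated genes 3 rose and 4 fell. The progenitor list was led by the integrin gene Itga6 (1.11 ± 0.34) and the Wnt target Axin2 (-4.07 ± 0.42 in the authors' deposited table).

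Krt8, Krt5, Krt14, Epcam and Cdh1 were not listed in this comparison, which alone does not give their tumour level, as with Sox10. They and Sox10 were also absent from the Nutlin-3 comparison, which holds tumour libraries only and lists genes with a mean above 10. Of 12111 genes whose untreated tumour mean alone passed that minimum, 4 (0.033%) were missing there. Those 12111 genes were all listed in the present comparison, so that share does not cover the absent ones. The listed Acta2, a basal marker, averaged 29.3 in tumour and 503 in empty-vector mammospheres. Of 9 listed luminal markers 5 fell, of 10 listed basal markers 4 fell, and of 15 fibroblast markers 1 rose and 6 fell. The basal sums went the other way, at 212321 in tumour and 135526 in empty-vector mammospheres. The highest single basal mean, 187904 in tumour and 98813 in empty-vector mammospheres, was most of each sum. Of 8 listed macrophage markers 6 fell, and of 8 listed endothelial markers 1 rose and 5 fell. The endothelial sums were higher in tumour, at 12918 in tumour and 8529 in empty-vector mammospheres. The highest single endothelial mean was 9812 in tumour and 3248 in empty-vector mammospheres. Of 8 listed Schwann cell markers 3 rose and 5 fell. The part of these cell types in the differences was not tested, and the tumour genotype cannot be told apart from the lack of infection, later passage and greater age of those mice.

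Nutlin-3 treatment asks how tumour mammospheres respond when p53 is freed from Mdm2. None of the 6 listed genes passed the adjusted threshold in the authors' DESeq2 test, against 14.7% of 13038 genes called (7.71% higher and 7.03% lower), and 1 had an unadjusted p below 0.05. The authors' deposited table gave a median log2 fold change of -0.08 over the 6 genes and 0.03 over all genes. The gene with an unadjusted p below 0.05 was Prom1, which averaged 1234 in treated and 980 in untreated tumour mammospheres (0.31, p = 0.0389, adjusted p = 0.17 in the authors' deposited table). Sox9 averaged 5644 in treated and 5672 in untreated tumour mammospheres (0.00066, adjusted p = 0.999 in the authors' deposited table). Procr averaged 620 in treated and 496 in untreated mammospheres (0.22, adjusted p = 0.49 in the authors' deposited table), and Cd24a 1282 in treated and 1760 in untreated mammospheres (-0.23, adjusted p = 0.739). Among the factors at low level, Id4 averaged 51.6 in treated and 58.0 in untreated mammospheres (-0.23, adjusted p = 0.962 in the authors' deposited table), and Trp63 9.94 in treated and 11.2 in untreated mammospheres (-0.16, adjusted p = 0.941). Of 19 listed partners 3 rose and 1 fell, with Perp at 126 in treated and 25.8 in untreated mammospheres (2.52, adjusted p = 2.78e-04 in the authors' deposited table). Of 26 other stem and progenitor associated genes 6 rose and 4 fell, led by Inpp5d (2.45) and by the CDK inhibitor gene Cdkn1b (-0.75 in the authors' deposited table). Inpp5d averaged 73.2 in treated and 13.3 in untreated mammospheres. Of 11 listed macrophage markers 1 rose and none fell (sums 2452 in treated and 1511 in untreated mammospheres). None of 8 luminal markers was called, 1 of 10 basal markers fell, and 1 of 7 endothelial and 1 of 7 Schwann cell markers rose. Of 14 fibroblast markers 2 rose and 1 fell. The part of these cell types was not tested. Sox10, Bcl11b and Tspan8 were not listed, and the log2 fold changes here were averaged over tumour-matched pairs, per the file headers, and carry no standard error.

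The tumour level of some of these genes depended on which libraries entered the mean. The Nutlin-3 table uses 3 of the 5 untreated tumour libraries. Prom1 averaged 980 over those 3 libraries and 626 over all 5, a log2 difference of 0.65 that lay at the 99.9 percentile of 12743 genes, whose median was -0.07. Id4 averaged 58.0 over 3 and 39.9 over 5 libraries (98.2 percentile), and Trp63 11.2 over 3 and 7.71 over 5 libraries (98.2 percentile). Procr, called lower in tumours, averaged 496 over 3 and 395 over 5 libraries (93.9 percentile). Sox9 averaged 5672 over 3 and 5723 over 5 libraries and Cd24a 1760 over 3 and 1730 over 5, so these means moved little. The tables were scaled separately by the authors, and values of single libraries were not analysed here.

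Myc-ER against empty-vector mammospheres, both infected and at passage 3, asks what the Myc fusion changes. Prom1, Trp63, Tspan8 and Sox9 fell in Myc-ER mammospheres and none of the 9 genes rose. These 4 of 9 stand against 24.1% of 13873 genes called lower, in a table where 50.8% of genes were called and 26.7% were called higher. The authors' deposited table gave a median log2 fold change of -0.92 over the 9 genes and -0.02 over all genes.

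Trp63 averaged 7.02 in Myc-ER and 26.3 in empty-vector mammospheres, with a log2 fold change of -1.59 ± 0.56 in the authors' deposited table (adjusted p = 0.0103). Sox9 averaged 1606 in Myc-ER and 2166 in empty-vector mammospheres (-0.43 ± 0.18, adjusted p = 0.0423 in the authors' deposited table). Sox9 thus lay below the same controls here, and above them in the tumour and knockout tables. Sox10 averaged 127 in Myc-ER and 281 in empty-vector mammospheres and did not pass (-0.92 ± 0.61, adjusted p = 0.199 in the authors' deposited table), whereas Sox8 fell (-1.58 ± 0.38, adjusted p = 1.54e-04). Id4 averaged 10.9 in Myc-ER and 30.7 in empty-vector mammospheres (-1.14 ± 0.65, adjusted p = 0.132 in the authors' deposited table). The other Id genes included a fall of Id2 (-1.48 ± 0.07) and a rise of Id3 (1.07 ± 0.14) on the log2 scale of the authors' deposited table. Bcl11b averaged 42.9 in Myc-ER and 47.8 in empty-vector mammospheres (-0.14 ± 0.51, adjusted p = 0.837 in the authors' deposited table).

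Of the surface genes, Prom1 averaged 247 in Myc-ER and 748 in empty-vector mammospheres (-1.42 ± 0.49, adjusted p = 0.00885 in the authors' deposited table). Tspan8 averaged 12.1 in Myc-ER and 47.7 in empty-vector mammospheres (-1.50 ± 0.65, adjusted p = 0.0432 in the authors' deposited table). Procr and Cd24a did not pass. Procr averaged 1414 in Myc-ER and 1586 in empty-vector mammospheres (-0.15 ± 0.40, adjusted p = 0.772 in the authors' deposited table), and Cd24a 575 in Myc-ER and 544 in empty-vector mammospheres (0.05 ± 0.73, adjusted p = 0.959). Of 20 partners 4 rose and 6 fell, and of 29 other stem and progenitor associated genes 1 rose and 7 fell. The 1 that rose was Aldh1a3 (0.97 ± 0.36), and Axin2 led the lower ones (-2.31 ± 0.21 in the authors' deposited table). Of 14 listed fibroblast markers 1 rose and 9 fell (sums 332903 in Myc-ER and 841211 in empty-vector mammospheres). Endothelial markers fell in 10 of 16 cases (7112 in Myc-ER and 15394 in empty-vector mammospheres) and macrophage markers in 10 of 13 listed. Of 22 listed luminal markers 2 rose and 4 fell, a count that includes Esr1, whose sequence the fusion carries. Without Esr1, luminal markers summed to 4507 in Myc-ER and 8526 in empty-vector mammospheres. Of 16 listed basal markers 1 rose and 3 fell, while their sums were 176840 in Myc-ER and 148483 in empty-vector mammospheres. The highest single basal mean, 149623 in Myc-ER and 107470 in empty-vector mammospheres, was most of each sum. Of 9 listed Schwann cell markers 4 fell (sums 7627 in Myc-ER and 17223 in empty-vector mammospheres). The part of these cell types in the differences was not tested.

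Myc-ER PKH-negative against PKH-negative cells gives the same fusion in sorted cells, with other control libraries. Prom1 fell and none of the 7 listed genes rose. This 1 of 7 stands against 18.5% of 14382 genes called lower (18.9% higher, 37.5% in either direction). Prom1 averaged 302 in Myc-ER PKH-negative and 1247 in PKH-negative cells, with a log2 fold change of -1.97 ± 0.26 in the authors' deposited table (adjusted p = 4.71e-13). Prom1 was therefore called lower in both Myc-ER tables, at about 24.2% of its mean in the PKH-negative controls and 33.0% of its mean in the empty-vector controls; whether these shares differ was not tested.

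The other genes did not pass. Sox9 averaged 2361 in Myc-ER PKH-negative and 3470 in PKH-negative cells (-0.52 ± 0.33, adjusted p = 0.216 in the authors' deposited table). Id4 averaged 7.74 in Myc-ER PKH-negative and 16.4 in PKH-negative cells (-0.80 ± 0.52, adjusted p = 0.22 in the authors' deposited table), and Trp63 17.6 in Myc-ER PKH-negative and 19.6 in PKH-negative cells (-0.14 ± 0.59, adjusted p = 0.883). Procr, Sox10 and Bcl11b lay on the higher side without passing. Procr averaged 2442 in Myc-ER PKH-negative and 1749 in PKH-negative cells (0.40 ± 0.49, adjusted p = 0.563 in the authors' deposited table), and Sox10 26.1 in Myc-ER PKH-negative and 21.1 in PKH-negative cells (0.23 ± 0.50, adjusted p = 0.765). Bcl11b averaged 22.2 in Myc-ER PKH-negative and 10.4 in PKH-negative cells (0.97 ± 0.49, adjusted p = 0.105 in the authors' deposited table). Bcl11b is expressed by T cells, and of 9 listed T lymphocyte markers 5 rose and none fell (sums 453 in Myc-ER PKH-negative and 128 in PKH-negative cells). Cd3d, Cd2, Zap70 and Trac were not listed here. Of the listed T lymphocyte markers in the other tables, 3 of 5 rose in PKH-high cells (sums 1003 in PKH-high and 106 in PKH-negative cells), 3 of 5 fell in the knockout (44.1 in knockout and 206 in empty-vector mammospheres), 1 of 3 fell in the tumour (69.4 in tumour and 145 in empty-vector mammospheres) and 1 of 5 fell in Myc-ER mammospheres (123 in Myc-ER and 201 in empty-vector mammospheres). Cd3e, Cd3d, Cd3g, Cd2, Cd8a, Cd8b1, Zap70 and Trac were not listed in those other tables. These counts and sums thus rest on the remaining markers of the list, Ptprc among them. The part of T lymphocytes in the values of Bcl11b was not tested. Its paralogue Bcl11a rose (1.76 ± 0.47, adjusted p = 8.90e-04 in the authors' deposited table). Tspan8 and Cd24a were not listed; for Cd24a the PKH-negative libraries alone would give a mean of 272 over the comparison, above the stated minimum of 10.

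Of 20 partners 4 rose and 4 fell, with Perp (2.02 ± 0.34) and Id2 (-1.86 ± 0.25 in the authors' deposited table) leading each direction. Of 28 other stem and progenitor associated genes 2 rose and 11 fell, led by Bcl11a and by Aldh1a1 (-2.80 ± 0.50 in the authors' deposited table). Of 15 listed endothelial markers 1 rose and 10 fell (sums 5080 in Myc-ER PKH-negative and 11632 in PKH-negative cells), and of 15 fibroblast markers 6 fell. Luminal markers without Esr1 summed to 2130 in Myc-ER PKH-negative and 1952 in PKH-negative cells. With Esr1, whose sequence the fusion carries, included in the count, 2 rose and 3 fell of 20 listed. Of 14 listed basal markers 1 rose and 6 fell, and of 8 listed Schwann cell markers 2 rose and 3 fell (sums 8243 in Myc-ER PKH-negative and 19066 in PKH-negative cells). The part of these cell types in the fall of Prom1 was not tested. The sorted controls were uninfected and at passage 1, so the fusion, infection and later passage cannot be told apart.

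**Figure D2:**
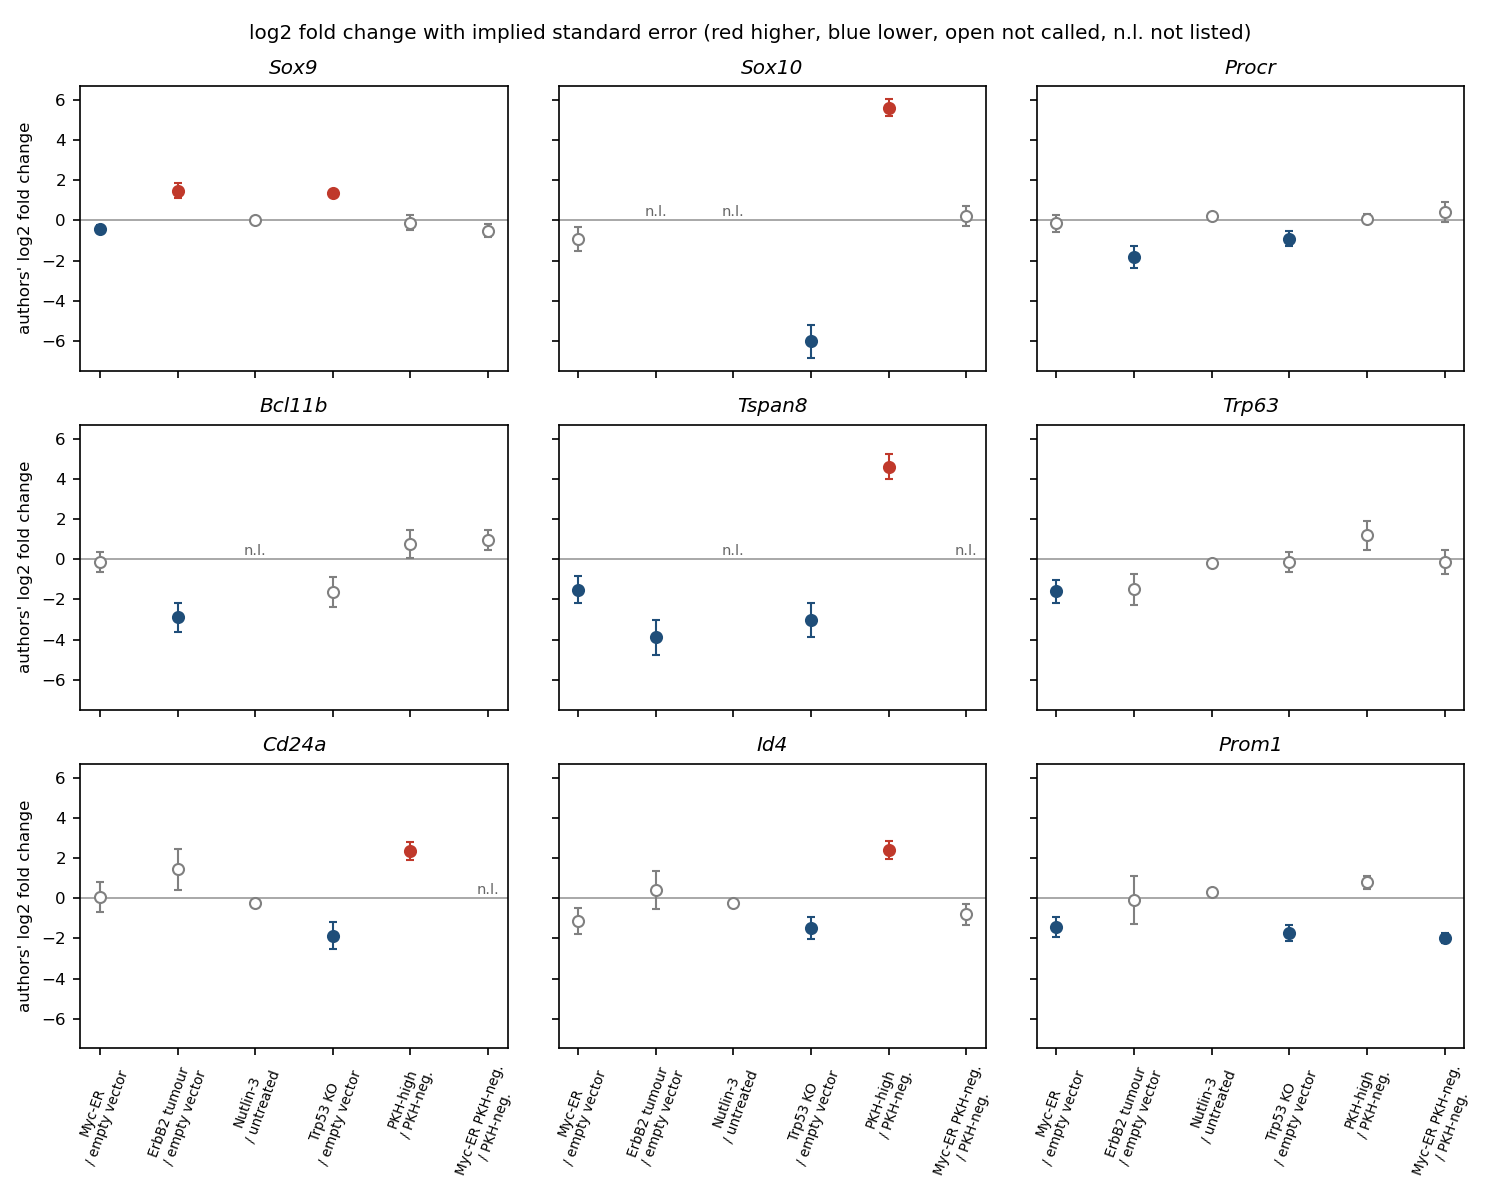
Authors' log2 fold change of each gene in the 6 comparisons, with the implied standard error as bars (none for Nutlin-3); filled red points were called higher, filled blue points lower, open points not called, and n.l. marks a gene that the table does not list. Prom1 lies at -1.42, -1.73 and -1.97 in the Myc-ER, knockout and Myc-ER PKH-negative comparisons, and Sox9 at 1.49 and 1.36 in the tumour and knockout comparisons.

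**Figure D3:**
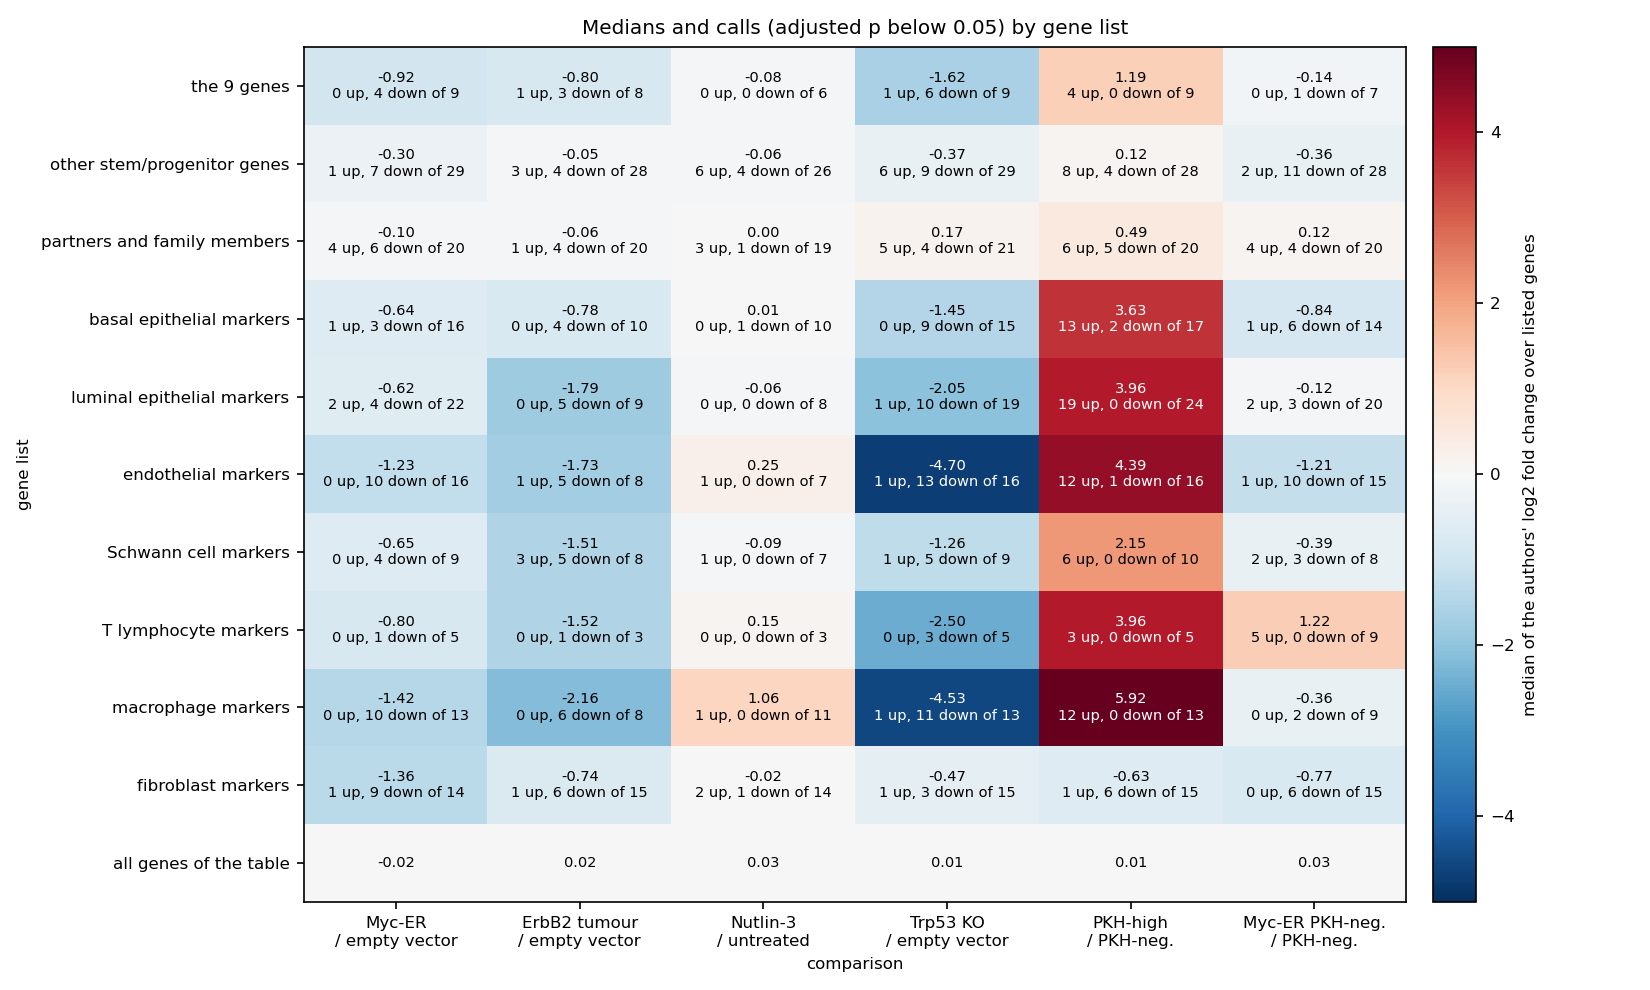
Median of the authors' log2 fold change over the listed genes of each list (colour and upper number), with the number of genes called higher (up) and lower (down) of those listed; columns are the 6 comparisons and the last row all genes. In the PKH column the 9 genes have a median of 1.19, while luminal and macrophage markers have 3.96 and 5.92. The luminal counts include Esr1, whose sequence the Myc-ER fusion carries.

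Levels were set against exon length to compare the genes within a group. Procr was highest per kb in Myc-ER, empty-vector, PKH-negative and Myc-ER PKH-negative cells, with 696 normalised counts per kb in Myc-ER and 781 in empty-vector mammospheres. Sox9 came first in Nutlin-3-treated and untreated tumour mammospheres, with 1365 normalised counts per kb in treated and 1372 in untreated ones in the Nutlin-3 table, and in knockout mammospheres, with 1373. Cd24a came first in PKH-high cells, with 1076 normalised counts per kb, against 845 for Procr and 715 for Sox9. The lowest of the genes listed in PKH-high cells was Bcl11b, with 2.12 normalised counts per kb. In knockout mammospheres Sox10 was lowest, with 0.79 normalised counts per kb. In PKH-negative cells Procr and Sox9 had 791 and 771 normalised counts per kb, and whether such neighbours differ beyond the spread of libraries is unknown. The gene that came first was the same in each group when the longest transcript was used as the length.

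**Figure D4:**
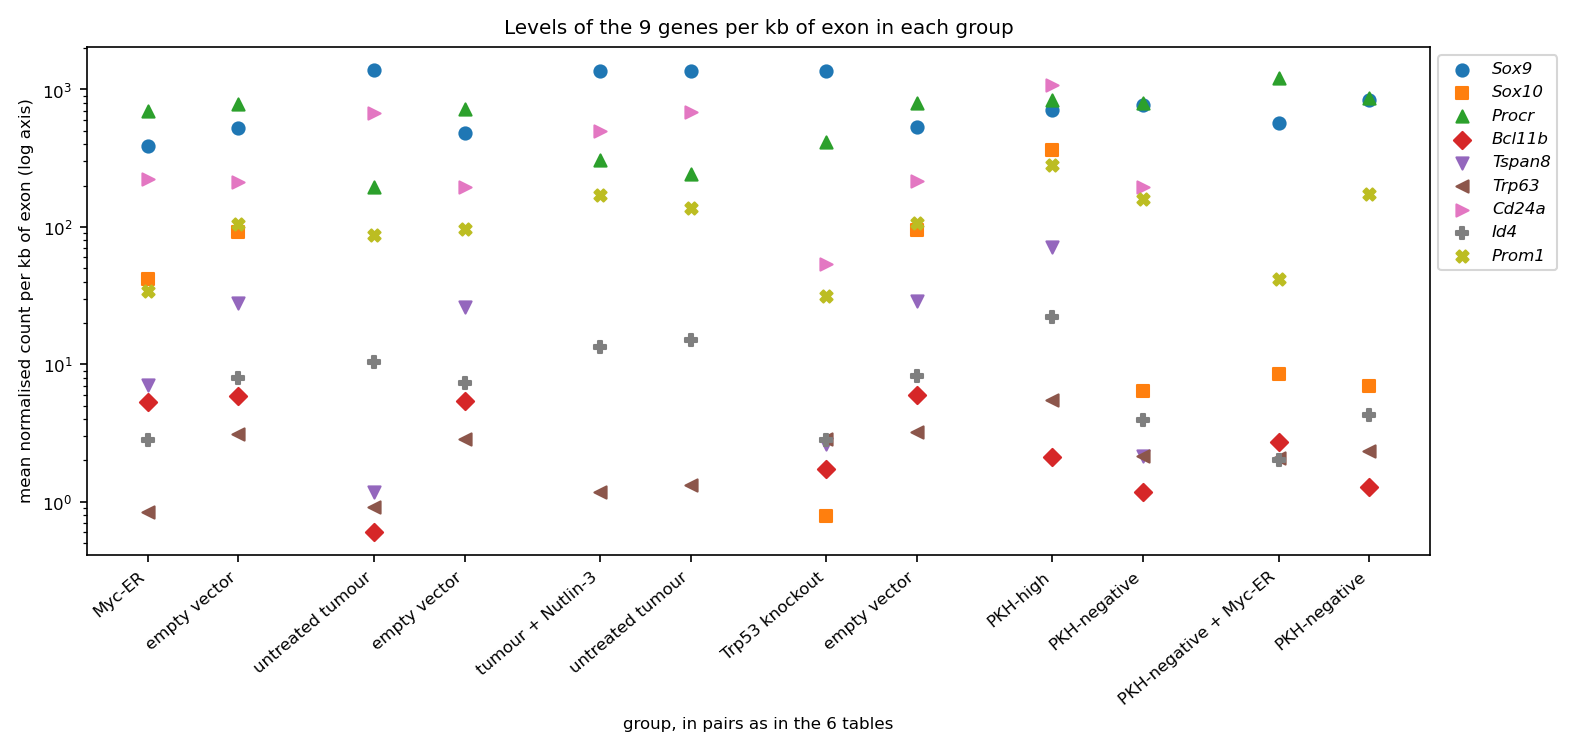
Mean normalised count per kb of exon (log axis) of each listed gene in the 2 groups of each table, drawn in pairs. Procr (green triangles) and Sox9 (blue circles) lie at the top of most columns, Sox9 leads in the tumour and knockout columns, and Cd24a leads in PKH-high cells with 1076.

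The 5 genes listed in all 6 tables (Sox9, Procr, Trp63, Id4 and Prom1) were compared with the 12420 genes listed in all of them by the root mean square difference of 6 log2 ratios of group means. Several of the 6 ratios share control libraries. Nearest to Sox9 were Aldh6a1 (0.22), Per2 (0.28) and C1rl (0.32), and nearest to Prom1 were Nr1h3 (0.23), Irs3 (0.30) and Fbln5 (0.40). Aldh6a1 encodes a mitochondrial dehydrogenase of valine breakdown, Per2 a clock repressor and Nr1h3 the oxysterol receptor LXR alpha. Procr had Slc9b2 (0.29), Lingo1 (0.31) and Mical2 (0.31) as its nearest genes. Trp63 had Sema3d (0.26), Sec14l2 (0.38) and Pcdh20 (0.41). Id4 had the placental growth factor gene Pgf (0.36), Fam57b (0.36) and Trim29 (0.37) on the same measure.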

How the data were processed

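Polyadenylated RNA of 24 libraries was sequenced (TruSeq RNA kit v2, per the labels). DESeq2 1.10.1 and HTSeq 0.5.3p9 are named with TopHat2 2.0.8, Bowtie2 2.1.0, SAMtools 0.1.18, CASAVA 1.9 and build mm10, per the submitters' processing notes. The deposited tables give a signal, the authors' mean normalised count of each group, with the authors' log2 fold change, p-value and adjusted p-value, and list genes with a mean above 10, per the file headers.

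The tables hold group means, so the authors' deposited adjusted p below 0.05 was the call, with direction from their log2 fold change, and no count model was refitted. Recomputed Benjamini-Hochberg values matched the deposited ones to within 9.15e-07. The implied standard error divides the log2 fold change by the z value of the deposited p-value. Columns headed wild type were matched to the empty-vector group, the unsorted wild-type group of the labels, so the infection of those controls rests on that match. Of the knockout table, 3 entries that name no gene (28.2% of the knockout and 29.7% of the empty-vector summed means) were left out. Levels per kb used GENCODE M21 exons. Python 3.11.15, pandas 2.3.3 and scipy 1.17.1 were used. The Benjamini-Hochberg adjustment, the implied standard error and the pattern distance were checked on simulated data. The authors' calls themselves were not tested in this way. Replicates are called biological in the file headers, which name no animals.

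The members and gene lists were chosen with earlier results of these data known. All 9 genes are named in every comparison, whether listed in its table or not. From each list at most the 2 called genes with the largest log2 fold change in each direction are named per comparison, with Trp53, Myc, Esr1 and Erbb2 as checks and the 3 nearest genes to each member. The SoxE and Id relatives, F3, Thbd, Perp, Krt5, Krt8, Krt14, Epcam and Cdh1 were also given outside this rule, chosen after their values were seen. Other thresholds, minima of the mean and ratios of means were tried.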

Additional observations from a re-analysis of the deposited data

How the results depend on the processing

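Members called numbered 4 for Myc-ER, 4 for the ErbB2 tumour, 7 for the knockout and 4 for PKH-high. At an adjusted p below 0.01 the count was 1 for Myc-ER and 4 for the knockout. When only genes with a mean above 100 were kept and adjusted anew it was 2 for Myc-ER, 2 for the ErbB2 tumour, 5 for the knockout and 2 for PKH-high, where members with lower means were no longer tested. The 6 values lost at 0.01 were Sox9, Tspan8 and Trp63 under Myc-ER and Procr, Cd24a and Id4 in the knockout, in the authors' deposited tables. At 0.1, Bcl11b in the knockout and Prom1 in PKH-high cells passed as well, and 46 of 48 values stayed on their side. Taking the direction from the ratio of group means left 47 of 48 values with their sign. The exception was Sox9 under Nutlin-3, at 0.00066 in the authors' deposited table and at -0.0070 with pseudocounts of 1 and 10 and -0.033 after centring on the median; the cause was not tested. No paired analysis was possible because the tables hold group means, and the authors had already paired the Nutlin-3 samples by tumour. For the same reason leaving out each replicate was not run.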
